A study of Danio rerio with 8 samples.

Results

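The levels of 10 vascular genes, chosen for their known role in vessels and found by gene symbol, were followed in the retina of zebrafish that lack a working *bbs2* gene. They are the endothelial receptor genes *kdrl*, *kdr*, *flt1*, *flt4*, *tie1* and *tek*, the endothelial surface genes *pecam1* and *plvapb*, and the receptor genes *pdgfrb* and *pdgfra* of pericytes and connective tissue cells. Each symbol matched 1 gene, so they are 10 of the 32520 genes in the count table. Retinas of *bbs2* -/- homozygotes (the mutants) were compared with retinas of *bbs2* +/+ wild-type siblings. Both came from crosses of heterozygotes and included fish of either sex. They were taken at 6 months post-fertilization after 16 to 20 h in the dark. The authors report that little pigment epithelium was included, and its marker levels are given below. Each genotype had 4 independent samples, each a pool of a pair of retinas sequenced as 1 library of ribosome-depleted total RNA. The retinas were whole tissue and no vascular cells were sorted, so a fall in the number of vascular cells and a fall in RNA per cell cannot be told apart. Nor can RNA of these genes from vessels be told apart from RNA of the same genes in other retinal cells.

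Blood vessels are tubes of endothelial cells wrapped by pericytes. Vascular endothelial growth factor (VEGF) acts on endothelial cells through receptor kinases of the Flt and Kdr family, with neuropilins as coreceptors, while angiopoietins act through the Tie receptors. Endothelial cells in turn release platelet-derived growth factor (PDGF) B, which recruits pericytes through the PDGF receptor beta. In adult zebrafish the vessels of the retina lie on its inner surface beside the vitreous, and the photoreceptors are fed from the choroid, a vessel bed behind the pigment epithelium.

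The wild-type libraries held between 6279179 and 8442827 counts over all genes, the mutant libraries between 7289910 and 11496801. The mutated gene *bbs2* itself stood at 39.8 to 45.5 CPM in wild-type siblings and at 27.3 to 28.8 CPM in mutants, where CPM are counts divided by the scaled library size, as edgeR gives them. The quasi-likelihood test of edgeR was run on the counts of all 17144 genes with enough reads, p-values were adjusted over all of them, and a gene was called at an adjusted p under 0.05. By that rule 28.1% of all tested genes were called, 15.2% higher and 13% lower in mutants, and for 29.3% the 4 values of one genotype did not overlap those of the other. Scaling by library totals in place of trimmed means raised the median log2 fold change over all genes by 0.10 and the share of higher genes among those called from 54.0% to 71.3%. Pigment epithelium and immune cell markers rose in the mutants and are given below, beside *plvapb* and *pecam1*. Fold changes are mutant over wild-type throughout, with their standard error (SE) or 95% interval, at n = 4 per genotype. Nothing in the sources states which strand reads were assigned to, so counts of genes that overlap another gene are uncertain.

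Of the 10 genes, only *pecam1* differed between the genotypes by this test, and it was higher in every mutant library. The VEGF receptor genes *kdrl*, *kdr* and *flt1* and both PDGF receptor genes were tested and were not called. Of the 8 genes with enough reads to be tested, 1 was called higher and none lower, a share of 12.5% against 28.1% of all genes. *flt4* and *plvapb* had too few reads and were not tested. The median log2 fold change of the 8 was 0.24, against -0.01 over all tested genes, and 3 of the 8 (*pecam1*, *tek* and *tie1*) had an unadjusted edgeR p under 0.05.

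**Figure D1:**
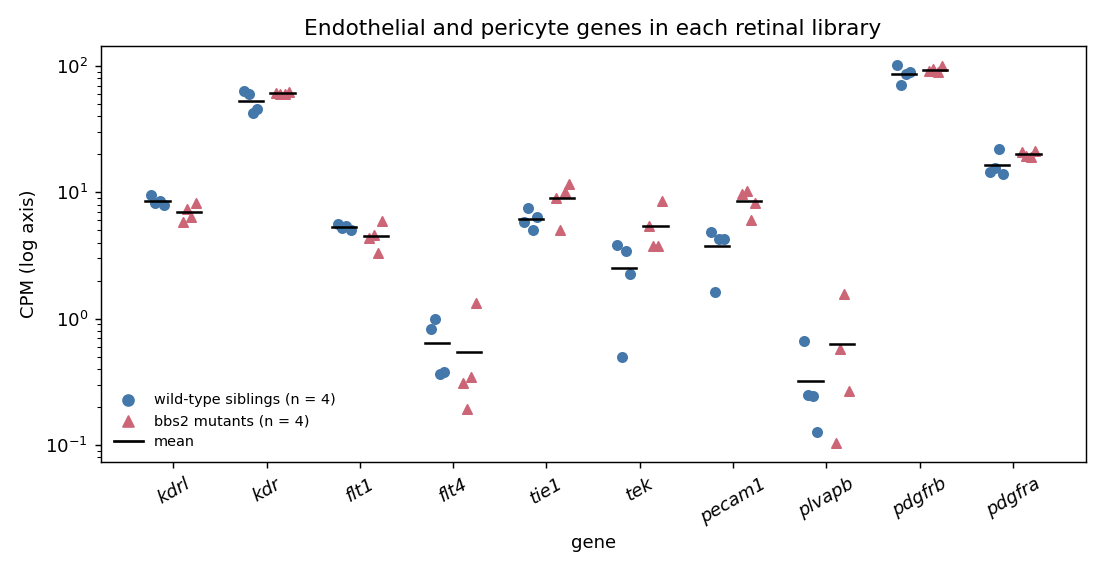
Level of each of the 10 genes in CPM on a log axis, 1 point per library, with circles for the 4 wild-type siblings, triangles for the 4 mutants and a line at each mean. Only for *pecam1* do all 4 triangles (6.00 to 10.3 CPM) lie above all 4 circles (1.63 to 4.81 CPM).

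The levels of different genes can be compared only per length, so deposited TPM (transcript abundances scaled by length and library size) were used for their order. In wild-type siblings *pdgfrb* was highest at 21.0 ± 2.9 TPM (SD, n = 4), and *kdr* followed at 18.1 ± 3.39 TPM, with ranges that overlap. *pdgfra* came next at 4.88 ± 1.29 TPM, then *kdrl* at 2.72 ± 0.22 TPM and *flt1* at 1.79 ± 0.108 TPM, each range clear of the one before it. *tek* (1.3 ± 0.778 TPM), *pecam1* (1.28 ± 0.484 TPM) and *tie1* (1.24 ± 0.213 TPM) could not be told apart, and the range of *flt1* overlapped that of *tek*. *plvapb* (0.281 ± 0.201 TPM) and *flt4* (0.226 ± 0.114 TPM) were lowest. In mutants the first 3 kept their order, at 23.1 ± 2.39, 21.2 ± 2.21 and 6.06 ± 0.804 TPM. *pecam1* came next there at 3.01 ± 0.839 TPM, though its range overlapped those of *tek* (2.88 ± 1.32 TPM) and *kdrl* (2.25 ± 0.368 TPM).

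The 2 zebrafish genes related to the main mammalian VEGF receptor differed widely in level. *kdr* (ENSDARG00000017321) is counted as the ortholog of mammalian KDR, while *kdrl* (ENSDARG00000105215), a related receptor gene that mammals lack, is the usual marker of endothelial cells in this species. Per length, *kdr* was 6.64 ± 1.06 times as high as *kdrl* in wild-type siblings (SD, n = 4, range 5.38 to 7.76) and 9.58 ± 1.43 times as high in mutants (8.05 to 11.3). Which cells the *kdr* RNA came from was not tested.

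*kdrl* stood at 9.45, 8.26, 8.54 and 7.96 CPM in wild-type siblings 1 to 4 and at 5.86, 7.32, 6.35 and 8.29 CPM in mutants 1 to 4. Mutants 1, 2 and 3 lay below every wild-type library, and mutant 4 lay among them. Its log2 fold change was -0.30 (SE 0.17, edgeR adjusted p = 0.225), with a 95% interval of the fold from 0.627 to 1.05. *kdr* stood at 63.3, 59.5, 42.7 and 46.0 CPM in wild-type siblings and at 61.4, 60.0, 60.1 and 62.1 CPM in mutants. Its mutant libraries were close together, while its wild-type libraries fell into a higher and a lower pair, and all 4 mutants lay within the wild-type range. The log2 fold change of *kdr* was 0.21 (SE 0.11, edgeR adjusted p = 0.193; fold 0.978 to 1.36).

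Within each library the log2 CPM of *kdr* minus that of *kdrl* was 2.71, 2.82, 2.29 and 2.50 in wild-type siblings and 3.34, 3.00, 3.20 and 2.87 in mutants. The 2 genes thus lay further apart in every mutant than in any wild-type library, by 0.52 on average on the log2 scale. An exact permutation test of this difference gave p = 0.0286, two-sided, the smallest that 4 against 4 samples allow. Adjusted over the 5 such pairs compared, the exact permutation p was 0.0714, so the difference did not pass. With 5 pairs and only 2 of them at the smallest p, neither can fall under 0.05 after adjustment, however large its difference. Its exact interval from ranks, at 97.1%, ran from 0.05 to 1.05.

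*flt1* (ENSDARG00000019371) encodes VEGF receptor 1, which binds VEGF tightly and in vessels acts largely as a decoy. It stood at 5.64, 5.25, 5.37 and 5.05 CPM in wild-type siblings and at 4.32, 4.62, 3.30 and 5.89 CPM in mutants. Mutants 1, 2 and 3 were below the wild-type range and mutant 4 above it, and the wild-type libraries spread by only 4.56% (coefficient of variation) where counting error alone would give about 15.8%. This gave a log2 fold change of -0.24 (SE 0.22, edgeR adjusted p = 0.462; fold 0.607 to 1.17).
*flt4* (ENSDARG00000104453), which encodes VEGF receptor 3, the receptor of lymphatic vessels and of sprouting veins, had 19 reads over the 4 wild-type libraries and 19 over the 4 mutants. Its level was 0.83, 1.00, 0.366 and 0.379 CPM in wild-type siblings and 0.309, 0.193, 0.348 and 1.34 CPM in mutants. Mutant 4 held 10 of the 19 mutant reads. At this depth a difference was not detectable, and without the filter on low counts edgeR's adjusted p was 0.853.

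The Tie receptor genes were higher on average in mutants, but neither passed the test. *tie1* (ENSDARG00000004105), which encodes an endothelial receptor that modulates its partner Tie2, stood at 5.80, 7.51, 5.0 and 6.32 CPM in wild-type siblings and at 9.05, 5.01, 10.1 and 11.6 CPM in mutants. Mutants 1, 3 and 4 lay above every wild-type library, and mutant 2 was level with the lowest of them. The log2 fold change was 0.53 (SE 0.24, edgeR adjusted p = 0.118; fold 1.01 to 2.06). Without mutant 2 it was 0.73 and was called (edgeR adjusted p = 0.0147). Without mutant 4 it was 0.39 (edgeR adjusted p = 0.315), and it was called in only 1 of the 13 alternatives.
*tek* (ENSDARG00000028663) encodes Tie2, the receptor of the angiopoietins. It stood at 3.81, 0.50, 3.41 and 2.27 CPM in wild-type siblings and at 5.45, 3.75, 3.74 and 8.56 CPM in mutants. Wild-type sibling 2, with 4 reads, was the lowest of the 8, and mutants 2 and 3 lay just below the highest wild-type library. Its log2 fold change of 1.1 had a wide error (SE 0.46, edgeR adjusted p = 0.0991; fold 1.07 to 4.32), and without wild-type sibling 2 it was 0.75. The difference between *tek* and *tie1* within a library did not separate the genotypes (0.74 on the log2 scale, exact permutation p = 0.371, adjusted p = 0.4; interval -0.86 to 3.01).

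*pecam1* (ENSDARG00000060263, named *pecam1a* in the Ensembl name table) rose. It encodes an adhesion molecule of the junctions between endothelial cells, which in mammals is also carried by platelets and white blood cells. Its level was 4.81, 1.63, 4.27 and 4.30 CPM in wild-type siblings and 9.67, 10.3, 6.00 and 8.16 CPM in mutants, from 13 to 35 reads and from 61 to 107 reads per library. All 4 mutants lay above all 4 wild-type siblings, of which number 2 was well below the other 3. The log2 fold change was 1.19 (SE 0.28, edgeR adjusted p = 0.0049), a fold of 2.29 with a 95% interval from 1.51 to 3.48. Without wild-type sibling 2 it was 0.93 (edgeR adjusted p = 0.00882), and it was called under each of the 13 alternative settings, with adjusted p from 0.000852 to 0.0191.
Genes of 2 kinds of cell that can carry this molecule were set beside it. *cdh5*, which encodes VE-cadherin, the defining cadherin of endothelial junctions, stood at 51.7 to 62.7 CPM in wild-type siblings and at 52.4 to 57.0 CPM in mutants (log2 fold change -0.14, SE 0.08, edgeR adjusted p = 0.229; fold 0.798 to 1.02). The ratio of *pecam1* to *cdh5* ran between 0.0259 and 0.0831 in wild-type siblings and between 0.115 and 0.191 in mutants, and its ratio to *kdrl* was 0.197 to 0.540 and 0.945 to 1.65. Since *pecam1* was singled out for its change, these ratios are given without a test.
All 11 tested markers of white blood cells and microglia, of 14 on the list, were called higher, against 15.2% of all tested genes. Their median log2 fold change was 1.97. Their summed level went from 252 to 327 CPM in wild-type siblings to 516 to 626 CPM in mutants. *ptprc*, which encodes the common leukocyte antigen CD45, rose from 4.45 ± 0.521 to 17.2 ± 3.39 CPM (SD, n = 4). The ratio of *pecam1* to *ptprc* ran between 0.433 and 0.972 in wild-type siblings and between 0.454 and 0.563 in mutants. The ranges overlap only through wild-type sibling 2 (0.433), and the other 3 wild-type siblings, at 0.919 to 0.972, lay above every mutant. Such a ratio depends on the marker chosen. The mean summed level of the whole list was 2.15 times as high in mutants, and the mean CPM of *pecam1* was 2.28 times as high. In wild-type siblings most of that sum was *apoeb*, a gene of microglia and glia, with a log2 fold change of 0.70 against the list's median of 1.97. Thrombocytes, the platelets of fish, left little RNA: *mpl* had no read in any library and *itga2b* had reads in 1 wild-type library only. Of the 6 thrombocyte markers, *thbs1b* alone was tested. It encodes a thrombospondin, which other cells make too, and it rose from 11.1 to 66.2 CPM in wild-type siblings to 197 to 389 CPM in mutants. The part of white blood cells in the rise of *pecam1* was not tested.

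*plvapb* (ENSDARG00000045003) encodes the protein of the diaphragms that span pores in fenestrated vessels, such as those of the choroid. It had 4, 2, 2 and 1 reads in wild-type siblings and 1, 6, 18 and 2 reads in mutants, or 0.126 to 0.663 CPM and 0.103 to 1.57 CPM. Mutant 3 held 18 of the 27 mutant reads, the other mutants overlapped the wild-type libraries, and no difference was detectable at this depth (edgeR adjusted p = 0.454 without the filter). The difference between *plvapb* and *kdrl* within a library was 0.73 higher in mutants on the log2 scale (exact permutation p = 0.2, adjusted p = 0.333; interval -0.75 to 2.65). Its copy *plvapa* had 3 reads, all in mutant 1.
Marker RNA of cells that lie beside the choroid was far higher in the mutants. Of 12 tested markers of pigment epithelium and pigment cells, 11 were called higher, against 15.2% of all tested genes. Among them were *tyrp1a*, *pmelb* and *oca2* of melanin formation. The median log2 fold change of the 12 was 3.29. The summed level of the list went from 59.8 to 162 CPM in wild-type siblings to 1050 to 1480 CPM in mutants. Whether more of that tissue, or choroidal vessels with it, was left on the mutant retinas was not tested. Nor was the part of choroidal vessels in the levels of the 10 genes.

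The PDGF receptor genes varied little among the mutants. *pdgfrb* (ENSDARG00000100897), the receptor gene by which pericytes are recruited to vessels, had 561 to 1036 reads per library. It stood at 102, 70.2, 85.9 and 89.1 CPM in wild-type siblings and at 90.9, 93.9, 90.1 and 99.1 CPM in mutants. All 4 mutants lay inside the wild-type range, with a log2 fold change of 0.11 (SE 0.10, edgeR adjusted p = 0.45). Its 95% interval was 0.935 to 1.24 in fold. In the RefSeq gene table (assembly GRCz12tu) *pdgfrb* lies next to *csf1ra*, the receptor gene of microglia and pigment cells. *csf1ra* rose from 14.0 ± 1.48 to 51.5 ± 13.6 CPM (SD, n = 4; edgeR adjusted p = 2.41e-05).
*pdgfra* (ENSDARG00000070494), the receptor gene of fibroblasts and of oligodendrocyte precursors, stood at 14.4, 15.6, 22.2 and 13.9 CPM in wild-type siblings and at 20.8, 19.5, 19.2 and 21.4 CPM in mutants. The 4 mutants lay above wild-type siblings 1, 2 and 4 and below wild-type sibling 3. The log2 fold change was 0.28 (SE 0.15, edgeR adjusted p = 0.168; fold 0.982 to 1.51), and without wild-type sibling 3 it was 0.46 and was called (edgeR adjusted p = 0.0147). Without wild-type sibling 4 it was 0.20 (edgeR adjusted p = 0.366), and *pdgfra* too was called in only 1 of the 13 alternatives.
Per length, *pdgfrb* was 4.51 ± 1.27 times as high as *pdgfra* in wild-type siblings and 3.82 ± 0.149 times in mutants (SD, n = 4). The difference between them within a library did not separate the genotypes (0.19 on the log2 scale, exact permutation p = 0.4, adjusted p = 0.4; interval -0.31 to 0.69). *pdgfrb* minus *kdrl* was 3.40, 3.05, 3.30 and 3.45 in wild-type siblings and 3.90, 3.64, 3.78 and 3.54 in mutants. Every mutant lay above every wild-type sibling, by 0.42 on average (interval 0.10 to 0.85). The exact permutation p was 0.0286, and 0.0714 after adjustment. This difference did not pass the adjustment either, under the same limit of sample size as *kdr* minus *kdrl*. Both of these pairs subtract *kdrl*, so they are not independent of each other.

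**Figure D2:**
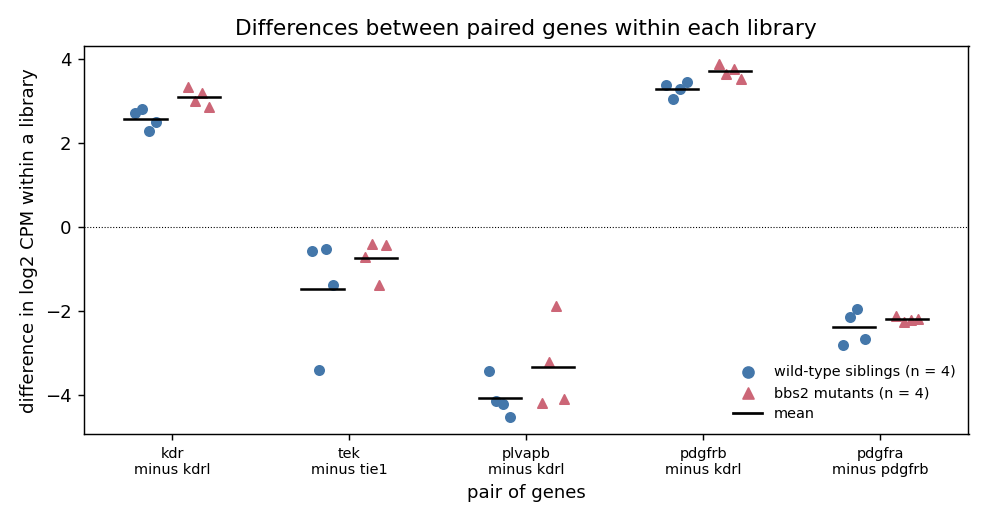
Difference in log2 CPM between 2 genes of the same library, for the 5 pairs compared, with circles for the 4 wild-type siblings, triangles for the 4 mutants and a line at each mean. The genotypes are apart for *kdr* minus *kdrl* and *pdgfrb* minus *kdrl*, which share *kdrl*, and overlap for the other 3 pairs.

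Other genes of mural cells, the pericytes and smooth muscle cells around vessels, were mostly not called or scarcely read. Of 24 on the list 10 were tested, and 1 was called higher and none lower, with a median log2 fold change of -0.11. The share called was 10% against 28.1% of all genes. An unadjusted edgeR p under 0.05 was found for 3 of the 10. Besides the called gene these were *cnn1b* (log2 fold change 1.22, SE 0.44, edgeR adjusted p = 0.0519) and *abcc9* (-0.27, SE 0.11, edgeR adjusted p = 0.0972). Both were named after their values were seen. *notch3*, which encodes a Notch receptor of mural cells, stood at 60.2 ± 3.07 CPM in wild-type siblings and 56.2 ± 4.04 CPM in mutants (SD, n = 4; edgeR adjusted p = 0.407). *rgs5a*, a marker of pericytes, stood at 19.4 ± 0.927 and 17.7 ± 1.59 CPM (edgeR adjusted p = 0.438). How much of the RNA of *notch3*, *abcc9* or *rgs5a* came from mural cells was not tested. Its copy *rgs5b* had 5 reads over the wild-type libraries and 27 over the mutants, and was not tested. The contractile genes *acta2* and *tagln*, the mural transcription factor genes *foxf2a*, *foxf2b* and *tbx18* and the pericyte channel gene *kcnj8* had at most 6 reads in any library. Of these, *acta2* had 19 reads over the wild-type libraries and 9 over the mutants. All 4 mutants lay below every wild-type library for it in CPM, and it was not tested. The 1 gene called was *mcamb*, an adhesion molecule gene of endothelial and mural cells. It stood at 4.42 to 7.07 CPM in wild-type siblings and 20.3 to 32.6 CPM in mutants (log2 fold change 2.23, SE 0.18, edgeR adjusted p = 3.64e-07). Which cells carried the rise of *mcamb* was not tested.
Genes of the other cells that carry the alpha receptor were read too. Of 12 fibroblast markers 9 were tested and none was called by edgeR, against 28.1% of all genes. Their median log2 fold change was -0.17, and none had an unadjusted edgeR p under 0.05. Of 6 markers of oligodendrocyte precursors only *sox10* and *olig2* were tested. Both were called higher, against 15.2% of all tested genes. Of the 4 not tested, *olig1* had no read in any library. Over the wild-type and the mutant libraries *nkx2.2a* had 5 and 6 reads, *cspg4* 15 and 13, and *gpr17* 14 and 58. *sox10* went from 14.4 ± 2.41 to 21.7 ± 1.8 CPM (SD, n = 4; edgeR adjusted p = 0.00343). For *olig2*, at 0.854 to 3.15 and 2.96 to 5.75 CPM, the edgeR call (adjusted p = 0.025) ended without wild-type sibling 3 or 4 or without mutant 1 or 4 (0.0615 to 0.0869).

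Of the 4 neuropilin genes 3 were called higher in mutants, against 15.2% of all tested genes. The receptor kinase genes were not called. Of these, *tek* (log2 fold change 1.1, SE 0.46) and *tie1* (0.53, SE 0.24) had changes of like size with wider errors. A difference between receptors and coreceptors was not tested. Neuropilins are coreceptors that bind both VEGF and semaphorins, and in the retina neurons and glia express them as well as vessels. *nrp2b* stood at 18.1, 13.5, 15.9 and 15.8 CPM in wild-type siblings and at 37.6, 31.0, 34.2 and 32.8 CPM in mutants. Its lowest mutant was well above its highest wild-type library (log2 fold change 1.11, SE 0.11, edgeR adjusted p = 3.27e-06). *nrp1a* stood at 29.7 to 37.4 CPM in wild-type siblings and at 49.0 to 56.2 CPM in mutants (log2 fold change 0.72, SE 0.10, edgeR adjusted p = 4.33e-05). *nrp2a* stood at 18.6 to 22.9 and 25.0 to 36.7 CPM (0.54, SE 0.13, edgeR adjusted p = 0.00449), and *nrp1b* had a log2 fold change of 0.12 (edgeR adjusted p = 0.577).
Of 6 tested VEGF ligand genes 1 rose and none fell, with a median of -0.15 and a share called of 16.7% against 28.1% of all genes. *vegfab*, 1 of the 2 zebrafish genes for VEGF-A, stood at 8.29, 6.50, 4.15 and 3.66 CPM in wild-type siblings and at 10.1, 13.4, 8.78 and 13.4 CPM in mutants (log2 fold change 1.03, SE 0.24, edgeR adjusted p = 0.00508). Its copy *vegfaa* stood at 14.4 to 20.6 and 12.8 to 16.2 CPM, with a log2 fold change of -0.36 (edgeR adjusted p = 0.0672). The 2 copies were thus on opposite sides of 0, but the difference between them was not tested.
Of 4 tested genes of angiopoietins and Tie modulators none was called by edgeR, against 28.1% of all genes. None had an unadjusted edgeR p under 0.05. *angpt1*, the activating ligand of Tie2, stood at 3.35 ± 0.247 CPM in wild-type siblings and 3.40 ± 0.384 CPM in mutants (SD, n = 4). Both *angpt2a* and *angpt2b*, which encode the antagonist of mammalian vessels, had at most 5 reads in any library.
Of 5 tested PDGF ligand genes 1 rose and none fell, with a median of 0.23 and a share called of 20% against 28.1% of all genes. *pdgfc*, a ligand of the alpha receptor, stood at 1.14 to 2.2 CPM in wild-type siblings and at 2.35 to 4.73 CPM in mutants (log2 fold change 0.95, SE 0.33, edgeR adjusted p = 0.0426). That call ended in 10 of the 13 alternatives, with adjusted p from 0.0241 to 0.151. *pdgfba* and *pdgfbb* encode PDGF B, the ligand of the beta receptor, and had log2 fold changes of -0.22 and 0.05 (edgeR adjusted p = 0.0637 and 0.848). The 4 mutant values of *pdgfba* (34.1 to 39.0 CPM) all lay below the 4 wild-type values (41.3 to 46.3 CPM), which 29.3% of all genes also did in one direction or the other.

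**Figure D3:**
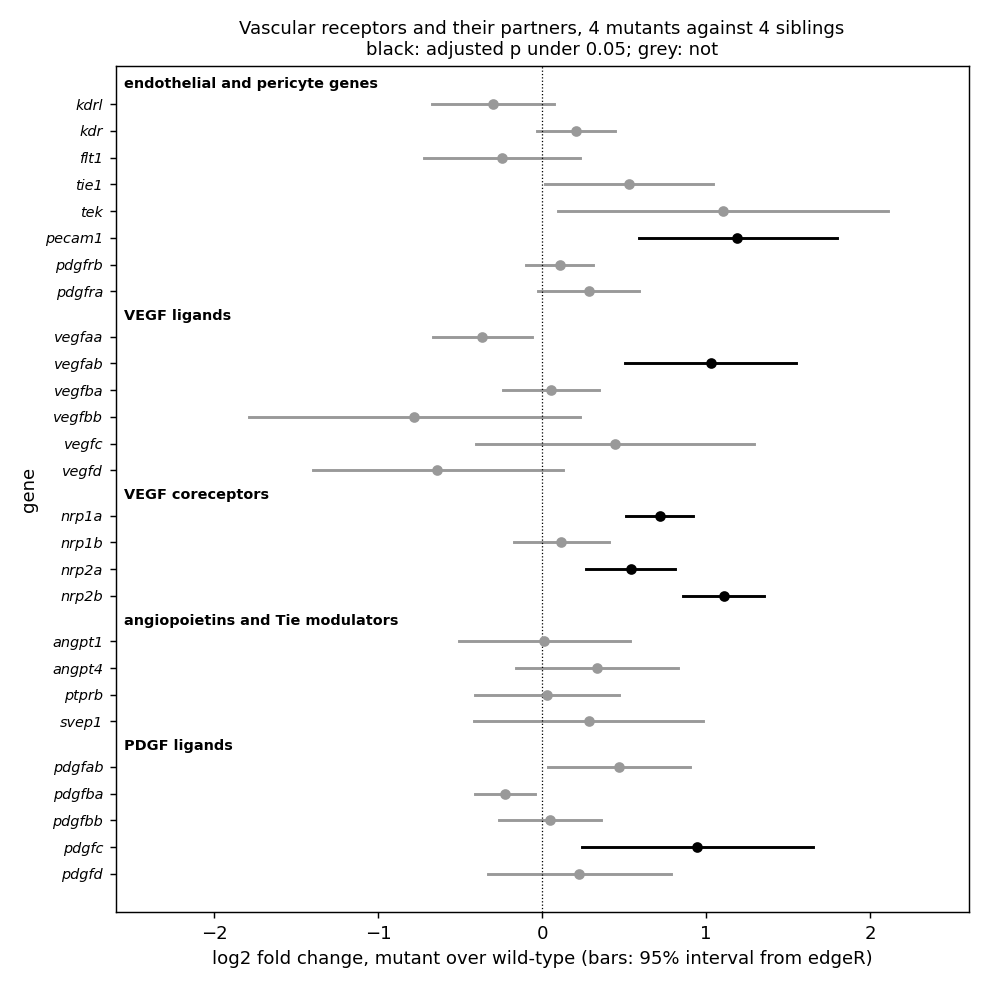
Log2 fold change of mutants over wild-type siblings (x axis) for the 8 tested genes of the set and for the tested ligand, coreceptor and Tie modulator genes, with bars for the 95% interval from edgeR and black for an adjusted p under 0.05. Among the 8 only *pecam1* is black and none of the receptor genes is, while *nrp1a*, *nrp2a* and *nrp2b* are black among the coreceptors.

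Among other genes of endothelial cells the changes went both ways, and the cadherin gene *cdh5* described above was not called. Of 48 on the list 30 were tested, 7 of which rose and 3 fell, with a median log2 fold change of 0.17 and a share called of 33.3% against 28.1% of all genes. Some of them are expressed in retinal neurons and glia as well, *notch1b*, *dll4*, *nr2f2* and *efnb2a* among them. Of the 3 that fell, this holds for *dll4* and *nr2f2*. *plxnd1*, which encodes the semaphorin receptor plexin D1 of vessels, stood at 1.33, 1.5, 2.2 and 1.90 CPM in wild-type siblings and at 16.4, 19.0, 11.8 and 17.3 CPM in mutants. That is a log2 fold change of 3.19 (SE 0.22, edgeR adjusted p = 5.9e-08). *gpr182*, which encodes a chemokine scavenger of endothelial cells, rose from 0.732 to 2.32 CPM to 3.91 to 8.57 CPM (2.13, SE 0.35, edgeR adjusted p = 0.000267).
*dll4*, which encodes the Notch ligand that restrains sprouting, fell from 19.5 to 28.2 CPM in wild-type siblings to 8.33 to 13.2 CPM in mutants (log2 fold change -1.22, SE 0.16, edgeR adjusted p = 4.4e-05). The receptor gene *notch1b* rose from 20.1 to 26.5 CPM to 35.7 to 43.7 CPM (0.78, SE 0.12, edgeR adjusted p = 9.91e-05). *nr2f2*, a transcription factor gene of venous identity, fell from 202 to 326 CPM to 157 to 177 CPM (-0.72, SE 0.13, edgeR adjusted p = 0.0012).
*esama* and *esamb* are copies of 1 gene for a junction adhesion molecule of endothelial cells. *esama* fell from 23.2 to 33.4 CPM to 14.5 to 17.9 CPM (-0.69, SE 0.13, edgeR adjusted p = 0.000984). *esamb*, named after its values were seen, rose from 24.5 to 40.9 CPM to 53.5 to 66.2 CPM (0.80, SE 0.13, edgeR adjusted p = 0.000267). The ratio of *esamb* to *esama* ran between 0.881 and 1.76 in wild-type siblings and between 2.99 and 4.05 in mutants. How reads were divided between such copies was not examined.
The other 3 that rose were likewise named after their values were seen. They are *vwf*, the gene of von Willebrand factor (log2 fold change 0.99), the BMP receptor gene *acvrl1* (1.26) and the apelin receptor gene *aplnra* (2.10). Its copy *aplnrb* had a log2 fold change of 1.02 (SE 0.37, edgeR adjusted p = 0.05) and just missed the call.

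**Figure D4:**
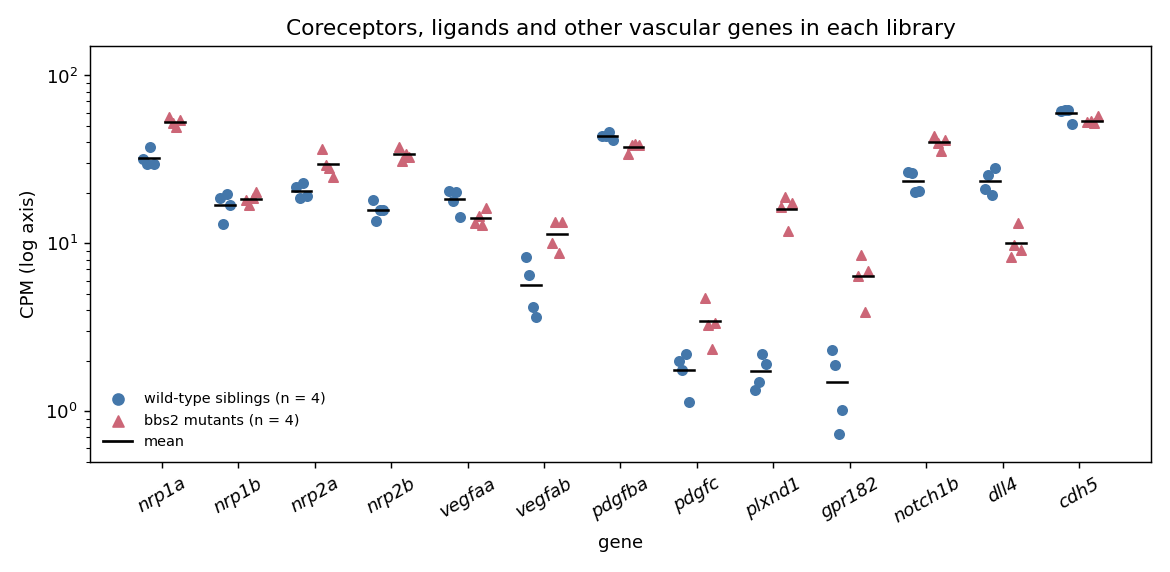
Level in CPM on a log axis of 13 coreceptor, ligand and other vascular genes, 1 point per library, with circles for the 4 wild-type siblings, triangles for the 4 mutants and a line at each mean. *plxnd1* shows the widest gap between genotypes of these 13, *dll4* lies lower in mutants, and the ranges of *cdh5* overlap.

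Genes of vessels with a tight barrier and of lymphatic vessels were few among those tested. Of 8 tested barrier genes 2 rose and none fell, with a median of 0.14. That is a share called of 25%, near the 28.1% of all tested genes. *cldn5a*, the claudin gene of barrier vessels, rose from 2.2 to 5.18 CPM to 5.65 to 9.53 CPM (log2 fold change 1.29, SE 0.28, edgeR adjusted p = 0.0024). *slc2a1b*, a glucose transporter gene that pigment epithelium also uses, rose from 37.4 to 62.8 CPM to 88.4 to 178 CPM (1.58, SE 0.25, edgeR adjusted p = 0.00303). Its copy *slc2a1a* stood at 125 to 452 CPM in wild-type siblings and at 244 to 269 CPM in mutants (-0.15, SE 0.37, edgeR adjusted p = 0.813). *mfsd2aa* and *mfsd2ab*, lipid transporter genes of barrier vessels, had log2 fold changes of -0.12 and -0.32 (edgeR adjusted p = 0.799 and 0.144).
Of 6 genes of lymphatic and scavenger endothelium only *stab1* and *prox1a* were tested. *stab1*, a scavenger receptor gene that macrophages use too, rose from 5.24 to 8.97 CPM to 21.5 to 31.2 CPM (1.96, SE 0.17, edgeR adjusted p = 7.12e-07). *prox1a*, which horizontal cells also express, had a log2 fold change of -0.16 (edgeR adjusted p = 0.2). The lymphatic marker genes *lyve1a* and *lyve1b* had at most 4 reads in any library. Red blood cells left few reads, with a summed level of their 7 marker genes of 0.976 to 6.47 CPM in wild-type siblings and 1.57 to 10.2 CPM in mutants, and neither tested globin gene was called by edgeR (unadjusted p over 0.05 for both).

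**Figure D5:**
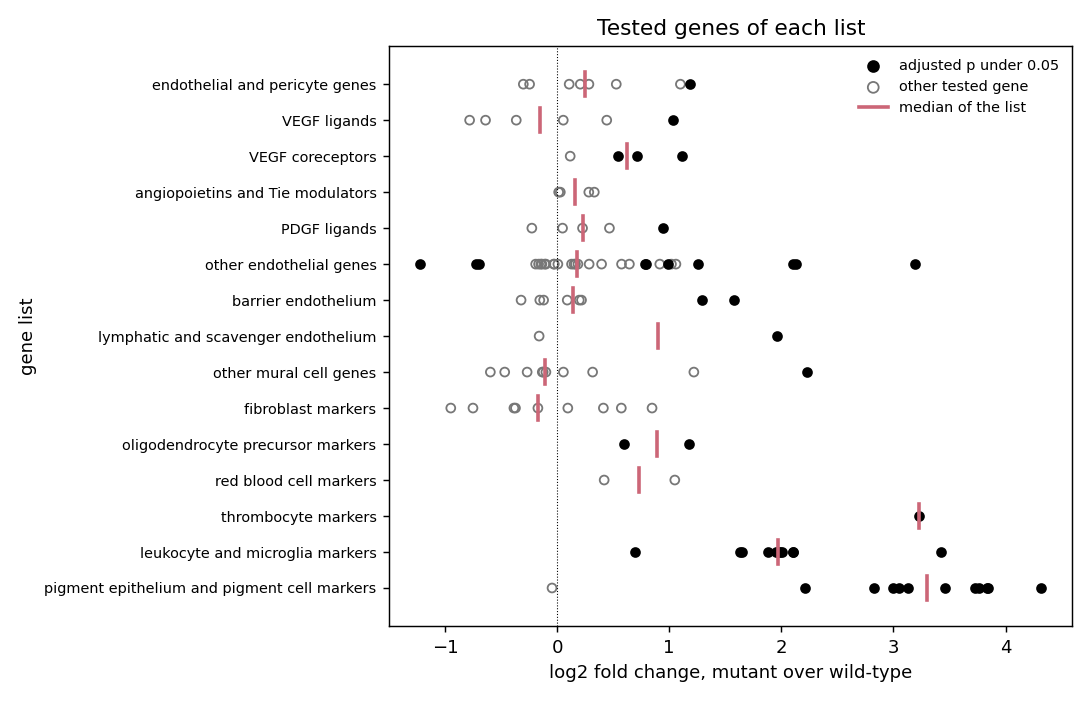
Log2 fold change of mutants over wild-type siblings (x axis) of each tested gene, by gene list, with filled points for an adjusted p under 0.05 and a line at each list's median. Medians of the vascular lists lie between -0.15 and 0.90, those of white blood cell and pigment lists at 1.97 and 3.29.

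To see which genes varied with the endothelial and pericyte genes apart from genotype, each genotype's mean was subtracted from log2 CPM and the 8 libraries were compared over the other 113 tested genes of the set and the lists. Nearest to *kdrl* were *pdgfab* (Pearson r = 0.876), *she* (0.868), which encodes an adaptor of endothelial cells, and *bco1l* (0.781), from the pigment list. Nearest to *pdgfrb* were *bco1l* (0.919), *sox10* (0.911) and *tek* (0.878). These are the highest of 113 values over 8 libraries, several from genes of low count, and are given as a description. The libraries also differed in single genes of the set within a genotype. Mutant 4 was the highest mutant for *kdrl*, *kdr*, *flt1*, *flt4*, *tie1*, *tek*, *pdgfrb* and *pdgfra*, and its level was 1.04 times that of the lowest mutant for *kdr* and 6.95 times for *flt4*. Wild-type sibling 1 was the highest wild-type library for *kdrl*, *kdr*, *flt1*, *tek*, *pecam1*, *plvapb* and *pdgfrb*. These were the libraries with the fewest counts of their genotypes (7289910 and 6279179). Whether depth bears on these ranks was not tested.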

How the data were processed

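The authors depleted ribosomal RNA, sequenced pairs of 100 nucleotides, and aligned them with STAR 2.7.5a to GRCz11 (Ensembl release 104), which also gave gene abundances. The authors deposited raw gene counts, the basis of all tests, and TPM, made by a tool not given in the sources used here and used only to order levels between genes. Their size-factor normalized table and their DESeq2 1.30.1 (R 4.0.4) comparison (mean, log2 fold change, error, p and FDR) were not used. Columns were matched to samples by title.

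The deposited counts went into the robust quasi-likelihood test of edgeR 4.0.16 under R 4.3.3. Libraries were scaled by TMM, genes with low counts were removed by filterByExpr (count 10), the model held genotype alone, and genes were called at a Benjamini-Hochberg FDR of 0.05. The filter kept 17144 genes, with a biological coefficient of variation of 13.6%. The edgeR fit was tested on simulated counts, with dispersions taken from these data, and the other steps were not simulated. Differences between genes within a library were taken on log2 CPM (prior count 2) and compared by exact permutation tests over 70 arrangements (scipy 1.17.1). Alternatives were DESeq2 1.42.0, library totals, no filter, limma-voom (limma 3.58.1), a replicate block and each library left out, and for the pairs a prior count of 0.5 and log2 TPM with a pseudocount of 0.1.

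The 10 genes and the 14 lists (168 symbols, of which pgfa, fli1, clec14b, eng and mlana matched no row) were chosen by role with earlier results of these data known. Genes named are the 10, the called genes of each list with the lowest p, at most 3 per direction, the 3 most alike to kdrl and pdgfrb, and others that a result turns on. Of the 10, 9 have the same name in the Ensembl name table. No coordinates are given, since the RefSeq table is of another assembly, GRCz12tu. Between replicate libraries the chi-square divided by its degrees of freedom was 5.71 to 12.3, above sampling noise.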

Additional observations from a re-analysis of the deposited data

Results flagged for a closer look

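In 3 of the 68 sets of 4 libraries examined (the 10 genes and the 24 named list genes, in each genotype), 1 library stood apart from the other 3 by Dixon's test at 95%, where chance gives about 1 in 20. *pecam1* was at 1.63 CPM in wild-type sibling 2 and at 4.27 to 4.81 CPM in the other wild-type siblings, and its call remained without that library. *flt4* was at 1.34 CPM in mutant 4 and at 0.193 to 0.348 CPM in the other mutants, values that rest on 2 to 10 reads. *apoeb*, a lipoprotein gene of microglia and glia, was at 248 CPM in wild-type sibling 1 and at 196 to 204 CPM in the other wild-type siblings.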

How the results depend on the processing

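Of the 8 tested genes, *kdrl*, *kdr*, *flt1* and *pdgfrb* were called under none of the 13 alternatives and *pecam1* under all 13, and no log2 fold change of the 8 changed sign. The count of genes called was 1 or 2 with a library left out: 2 without wild-type sibling 3 (*pdgfra*) and 2 without mutant 2 (*tie1*). It was also 2 with the replicate block, where *tek* had an adjusted p of 0.0489. The labels do not say whether replicate numbers mark pairs, and no pairing was seen in the values. Same-numbered libraries correlated at -0.066 to 0.060 in their deviations from the genotype means, and not every library correlated best with its own number. The block moved the count of all genes called from 4824 to 4759. The 5 pairs kept their direction, and their adjusted p stayed above 0.05 under every alternative. Several alternatives could not have given less, since the 4 same-numbered pairs cannot give a p below 0.125. With 1 library left out, 4 against 3 samples cannot give an exact permutation p under 0.05 either. Staying above 0.05 in those settings was thus fixed by sample size. Of the 24 named list genes, *pdgfc* and *olig2* lost their call under some alternatives, as given above, and the cause was not tested. Depth limits *flt4* and *plvapb*, with 1 to 18 reads per library, and *tek*, with 4 to 64.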

Other observations

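The apelin gene *apln*, whose product acts on vessels, stood at 95.4 to 137 CPM in wild-type siblings and at 132 to 159 CPM in mutants (log2 fold change 0.29, SE 0.10, edgeR adjusted p = 0.0551), while its receptor gene *aplnra* rose from 24 reads over the wild-type group to 136 over the mutants. The fibrillar collagen gene *col1a1a* was at 21.6 CPM in wild-type sibling 1, at 1.22 to 1.64 CPM in the other wild-type siblings, and at 7.12 CPM in mutant 2 against 1.48 to 2.27 CPM in the other mutants. *pdgfrb* was highest among wild-type libraries in that same sibling 1, whereas *pdgfra* was not. That rank was not particular to *pdgfrb*, since sibling 1 was also the highest wild-type library for *kdrl*, *kdr*, *flt1*, *tek*, *pecam1* and *plvapb*.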
